A study of Mus musculus with 4 samples.

Results

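The cytosolic ribosome holds a large and a small subunit, each built from ribosomal RNA and a set of proteins, and the genes for these proteins were followed through the development of the mouse pontine nucleus. Genes were taken by symbol: those that begin with Rpl or Rps and a digit, together with Rplp0, Rplp1, Rplp2 and Rpsa, leaving out the S6 kinases and symbols that mark pseudogenes. The rule found 63 of the 19938 genes that the array's annotation names with a single symbol. Of these, 33 encode proteins of the large subunit and 21 proteins of the small subunit. Another 7 are paralogs of ribosomal proteins, and Rps19bp1 and Rps23rg1 only carry such a protein's name. Of 79 cytosolic ribosomal proteins on a reference list, 54 were in the set, and Fau, whose product includes a small subunit protein, carried a single symbol outside the rule. A further 16 were measured only by probe sets that carry several symbols, and 8 were not named here.

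The pontine nucleus lies in the ventral pons and sends mossy fibres to the cerebellum. Tissue of ICR mice, an outbred strain, was pooled by age: 27 mice at embryonic day 17.5 (E17.5), 16 at postnatal day 1 (P1), 13 at P5 and 12 at P14. Each pool gave total RNA for 1 Affymetrix array, so no age had a replicate, no test could be run, and the spread between pools is unknown. No treatment or genetic change is given for any pool.

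Ribosomal proteins are made in near-equal numbers, since each subunit takes up a single copy of most of them, and unassembled proteins are degraded. In mammals their mRNAs open with a cytosine followed by a run of pyrimidines, the 5′ terminal oligopyrimidine or TOP motif, through which TOR signalling and LARP1 set how much each is translated. Growing and dividing cells make many ribosomes, and young neurons need them for the outgrowth of axons and dendrites.

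The arrays did not run in the order of their labels, which bears on every value below. Mog, a myelin surface protein, measured 7.18 at E17.5, 7.39 at P1, 12.91 on the labelled P5 array and 8.27 on the labelled P14 array, all in log2 signal. Dcx, a microtubule protein of migrating neurons, measured 12.97, 12.88, 9.79 and 12.14 in the same order. The labelled P5 array thus stood farther from P1 than the labelled P14 array in both, and these arrays are called by their labels throughout. Of 11 markers of the labelled tissue 10 passed the level filter described below, among them Barhl1 (12.23, 11.79, 10.83 and 11.61) and Pax6 (11.52, 11.03, 10.01 and 10.73), transcription factors of pontine neurons, and Slc17a6, a vesicular glutamate transporter (11.44, 11.17, 11.57 and 11.49). Lhx9 was under the filter on every array (6.96, 6.99, 6.50 and 6.85), and Lhx2 passed it through E17.5 alone (9.26, 7.93, 7.25 and 7.50). Slc17a7, a second vesicular glutamate transporter, ran the other way, with 8.16, 9.38, 12.90 and 11.36. In pooled tissue, fewer cells of a type and less RNA per cell cannot be told apart.

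The start of the transcript is the feature for which these mRNAs are best known, so the annotated starts of the members were read. RefSeq's table of promoters for GRCm38.p6 held 51 of the 63 members, with 60 promoters, among 32851 in all. The annotated first base was a C opening a pyrimidine run of at least 8 bases in 11.7% of the members' promoters and in 0.779% of all promoters. With a run of at least 5 bases the shares were 16.7% and 2.51%. A run of at least 8 pyrimidines opening with C lay within 20 bases of the annotated start in 36.7% of the members' promoters and 12.6% of all. The starts of the 7 members with the long run at the first base are shown from 10 bases before the start to 20 bases from it, in GRCm38.p6, with the run in capitals.
Rps15a, chr7:118116128-118116157, minus strand: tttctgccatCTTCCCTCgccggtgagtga
Rps18, chr17:33955646-33955675, minus strand: cacttccgctCTCTCTTCCacaggaggcct
Rpl38, chr11:114668570-114668599, plus strand: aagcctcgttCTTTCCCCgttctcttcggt
Rpl32l, chr10:20208429-20208458, plus strand: aaatgaccagCTTCTTCCTTggtgctgcct
Rps10, chr17:27635225-27635254, minus strand: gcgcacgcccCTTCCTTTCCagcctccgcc
Rps6, chr4:86857348-86857377, minus strand: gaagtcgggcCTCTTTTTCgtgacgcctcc
Rpl28, chr7:4792955-4792984, plus strand: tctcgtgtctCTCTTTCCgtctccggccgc
The labelled P5 array lay below P1 in all 7, where it did so in 55 of the 58 members past the level filter and in 45.6% of all genes. The differences of the 7 ran from -0.77 in Rps15a to -0.25 in Rpl28 on the log2 scale, which falls within the range of the other members.

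For comparison, the same window is shown for Rps12 and Rpsa, among the members lowest on the labelled P5 array, and for Rps27l and Rpl7l1, which were higher there than at P1. Capitals mark the longest pyrimidine run that opens with C within the printed window.
Rps12, chr10:23787190-23787219, minus strand: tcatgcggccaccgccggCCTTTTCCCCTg
Rpsa, chr9:120127756-120127785, plus strand: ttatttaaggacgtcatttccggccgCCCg
Rps27l, chr9:66946076-66946105, plus strand: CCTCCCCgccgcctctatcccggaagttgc
Rpl7l1, chr17:46782637-46782666, minus strand: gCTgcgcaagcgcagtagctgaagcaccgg
In Rps12 a long run began a few bases after the annotated start. In Rps27l the marked run reaches the edge of the window. Within 20 bases of the start shown, its longest pyrimidine run opening with C had 9 bases. At another annotated start of Rps27l, not shown, the longest had 4. A run missing from an annotated start says only that these letters are not in that window.

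Motifs of promoters were also looked for on either strand of the 300 bases from 250 before to 50 after each start. The ETS core CGGAAG was in 61.7% of the members' promoters and 16.9% of all. The GC box GGGCGG was in 56.7% and 35.7%, AAGATGGC, a YY1 motif, in 5.0% and 2.75%, while TATAAA was in 6 of the 60 and in 13.6% of all. CGGAAG can share bases with GGGCGG or with AAGATGGC, and such overlaps were not separated. Rps18 and Rps12 are shown as examples over 160 bases, of which 150 lie before the start, with CGGAAG or its reverse complement in capitals.
Rps18, chr17:33955656-33955815, minus strand: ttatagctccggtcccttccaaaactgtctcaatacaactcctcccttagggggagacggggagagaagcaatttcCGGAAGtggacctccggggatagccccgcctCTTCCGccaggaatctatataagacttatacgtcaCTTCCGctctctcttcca
Rps12, chr10:23787200-23787359, minus strand: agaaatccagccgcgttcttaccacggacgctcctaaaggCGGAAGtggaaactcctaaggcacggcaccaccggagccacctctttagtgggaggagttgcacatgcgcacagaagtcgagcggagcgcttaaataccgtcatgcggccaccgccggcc

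Values are log2 signals as deposited, and a difference is the log2 signal of one array minus that of another. Of a gene's probe sets, the one brightest on average was read. Genes stayed in where their highest array reached 8.41, the median of all probe sets with a single symbol, which 10901 genes and 58 of the 63 members did. Rplp2, Rpl3l, Rpl10l, Rpl39l and Rps23rg1 did not. Differences were counted at 0.5, which is 1.41-fold, and at 1. Because the filter takes the highest array, a gene can pass through a single array, and medians over all 63 members are given as well.

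Around birth the ribosomal protein genes stayed close to their embryonic levels. Between E17.5 and P1 none of the 58 members differed by 0.5 in either direction, while 3.65% of all genes were at least 0.5 lower at P1 and 5.28% at least 0.5 higher. The median difference was 0.035 (range -0.33 to 0.39), against -0.06 over all genes, and 25 members lay below 0, where 59.8% of all genes did. Over all 63 members the median was 0.03. The median changed sign, to -0.02, when only the 19 genes with a single probe set were kept, so no direction is given for it. The difference of the large subunit had a median of 0.01 over 32 genes and that of the small subunit 0.04 over 21.

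The ends of this narrow range were held by Rpsa, a small subunit protein also known as the laminin receptor precursor, at 0.39, Rpl24 at 0.36 and Rps12 at 0.30. At the other end stood Rpl12, which sits at the base of the stalk, at -0.33, then Rps27l and Rps3a1, both at -0.29. Rpl12 and Rps3a1 were read from dim probe sets, with 8.64 and 8.86 at P1. Their probe sets that carry several symbols reached 13.33 and 10.98 at P1. Those had medians of 0.19 and 0.145 in this comparison, so no direction is given for these genes.

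On the labelled P5 array the ribosomal protein genes were lower as a set. Against P1, 25 of the 58 members were at least 0.5 lower and 0 at least 0.5 higher, where 14.4% of all genes were at least 0.5 lower and 22.9% at least 0.5 higher. The median was -0.43, that is 1.35-fold lower, against 0.05 over all genes, and 55 members lay below 0, where 45.6% of all genes did. Over all 63 members the median was -0.42, and 27 were at least 0.5 lower, where 11.1% of all genes without the filter were. The members stayed close together, with a standard deviation of 0.23 across genes against 0.73 over all genes, as the histogram of differences shows. Only Rps12 passed 1, which 3.94% of all genes did in that direction. Against E17.5 the picture was much the same, and that comparison shares the labelled P5 array: 20 members were at least 0.5 lower and 0 higher, where the shares of all genes were 19.1% and 22.9%, the median was -0.435, and 57 members lay below 0, where 51.5% of all genes did. When each array was centred on its median over the genes past the filter, which moved P5 against P1 by 0.11 for every gene, the count against P1 became 36 and the share of all genes at least 0.5 lower 19.5%.

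**Figure D1:**
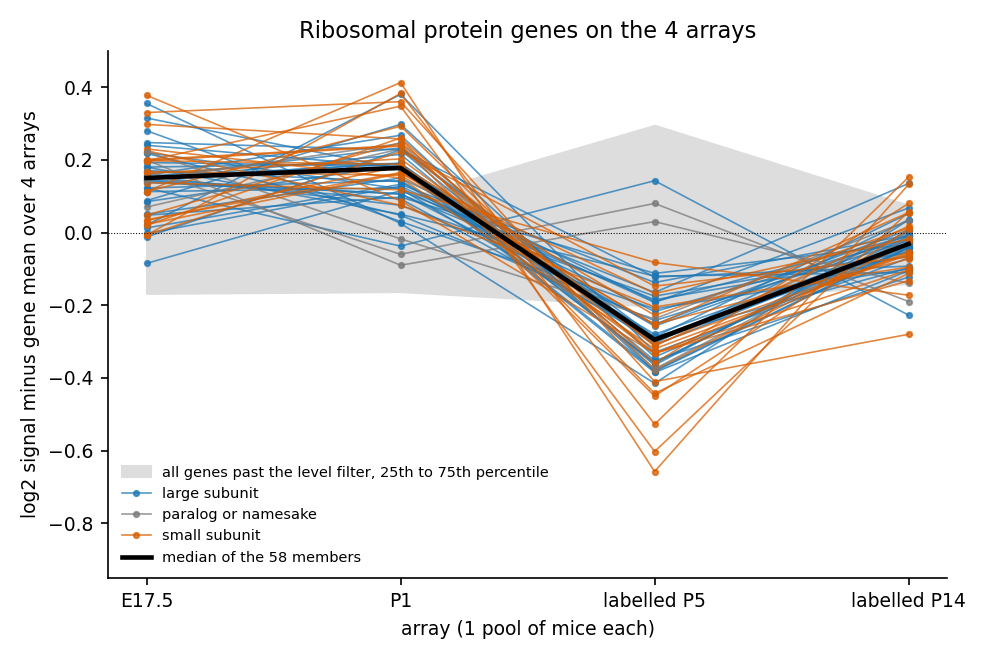
Log2 signal of each of the 58 members past the level filter, minus its own mean over the 4 arrays, joined across the arrays by lines coloured by subunit, with the members' median in black and the 25th to 75th percentile of all 10901 genes in grey. The black line is nearly flat from E17.5 to P1, lies at -0.295 on the labelled P5 array and at -0.031 on the labelled P14 array.

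**Figure D2:**
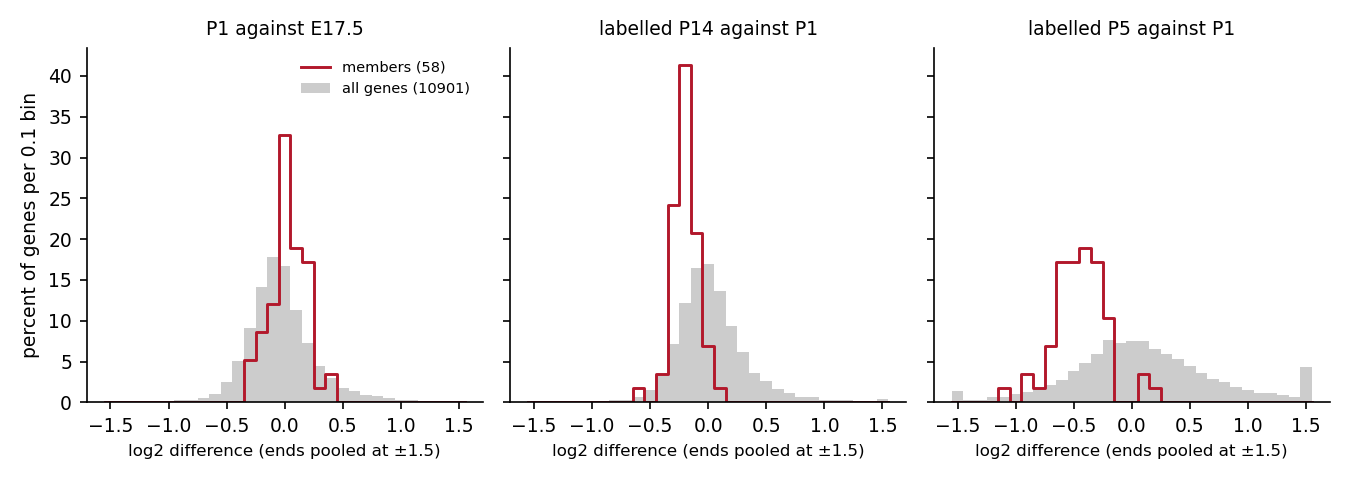
Percent of genes in each bin of 0.1 of the log2 difference, for all 10901 genes (grey bars) and the 58 members (red line), in 3 comparisons; values beyond the ends are pooled there. The red line sits around 0.035 in the left panel, around -0.205 in the middle panel and around -0.43 in the right panel, and it is narrower than the grey bars in each.

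Among small subunit proteins, 12 of 21 were at least 0.5 lower on the labelled P5 array than at P1, against 14.4% of all genes. All 21 lay below 0, where 45.6% of all genes did, and the median was -0.52. Rps12, a protein of the head of the small subunit, measured 11.16 at E17.5, 11.46 at P1, 10.39 on the labelled P5 array and 11.18 on the labelled P14 array. Its labelled P5 array was 2.1-fold below P1, and the other 3 arrays lay within 0.30 of each other. Rps20 measured 12.57, 12.72, 11.77 and 12.43 in the same order, a difference of -0.95 between the labelled P5 array and P1. Rpsa measured 11.92, 12.31, 11.40 and 12.08, a difference of -0.91. In these 3 genes the labelled P14 array lay within 0.16 of E17.5.

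Rps15a took another course. It measured 10.65 at E17.5, 10.68 at P1, 9.91 on the labelled P5 array and 10.04 on the labelled P14 array, so that the labelled P5 and P14 arrays both lay well below E17.5 and P1. The labelled P14 array stood 0.13 above the labelled P5 array on this probe set. On probe sets of Rps15a that carry several symbols the median of that difference was 0.34. Rps18 (12.31, 12.49, 11.82 and 12.17) and Rps2 (12.99, 13.23, 12.61 and 13.05) were at least 0.5 lower on the labelled P5 array than at P1. Rps6, the substrate of the S6 kinases downstream of TOR, moved less, with 13.49, 13.63, 13.30 and 13.45 and a difference of -0.33. The smallest difference in this subunit was that of Rps21, at 9.45, 9.43, 9.23 and 9.14, which was lowest on the labelled P14 array.

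Among large subunit proteins, 11 of 32 were at least 0.5 lower on the labelled P5 array than at P1, against 14.4% of all genes. Of the 32, 31 lay below 0, where 45.6% of all genes did, and the median was -0.41. Rpl24, which forms a bridge to the small subunit, had the largest difference past the filter, with 11.01 at E17.5, 11.37 at P1, 10.66 on the labelled P5 array and 10.92 on the labelled P14 array. Rpl38, known in mice for its part in the translation of Hox mRNAs, measured 12.38, 12.59, 11.95 and 12.25. Rpl23a, near the exit of the peptide tunnel, measured 11.86, 11.97, 11.32 and 11.66, a difference of -0.65. Rpl22, an RNA-binding protein of the large subunit, measured 10.41, 10.39, 9.81 and 10.04.

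At the other end of the large subunit, Rpl27 (12.26, 12.13, 11.96 and 11.97) and Rpl19 (13.27, 13.32, 13.11 and 13.19) differed by -0.17 and -0.21 between the labelled P5 array and P1. Rpl14 was the single subunit protein that was not lower there, with 8.61, 8.45, 8.63 and 8.26. It was read from 1 dim probe set, and its whole range over the 4 arrays was 0.37. The members just inside the rule of 0.5 were Rps14 at -0.51 and Rpl27a at -0.50, and those just outside were Rpl10a at -0.49 and Rpl37a at -0.48, so the count depends on where the line is set. The difference in median between the subunits was not tested.

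The stalk recruits translation factors to the large subunit. Rplp0, its base, measured 13.16 at E17.5, 13.15 at P1, 12.61 on the labelled P5 array and 12.95 on the labelled P14 array. Rplp1, one of its acidic arms, measured 13.16, 13.36, 13.08 and 13.38, and was the only member past the filter to be highest on the labelled P14 array. Rplp2, the other arm, measured 8.09, 8.18, 7.27 and 7.84 and was not past the filter. Rplp0 therefore stood 0.54 below P1 on the labelled P5 array and Rplp1 stood 0.28 below it.

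**Figure D3:**
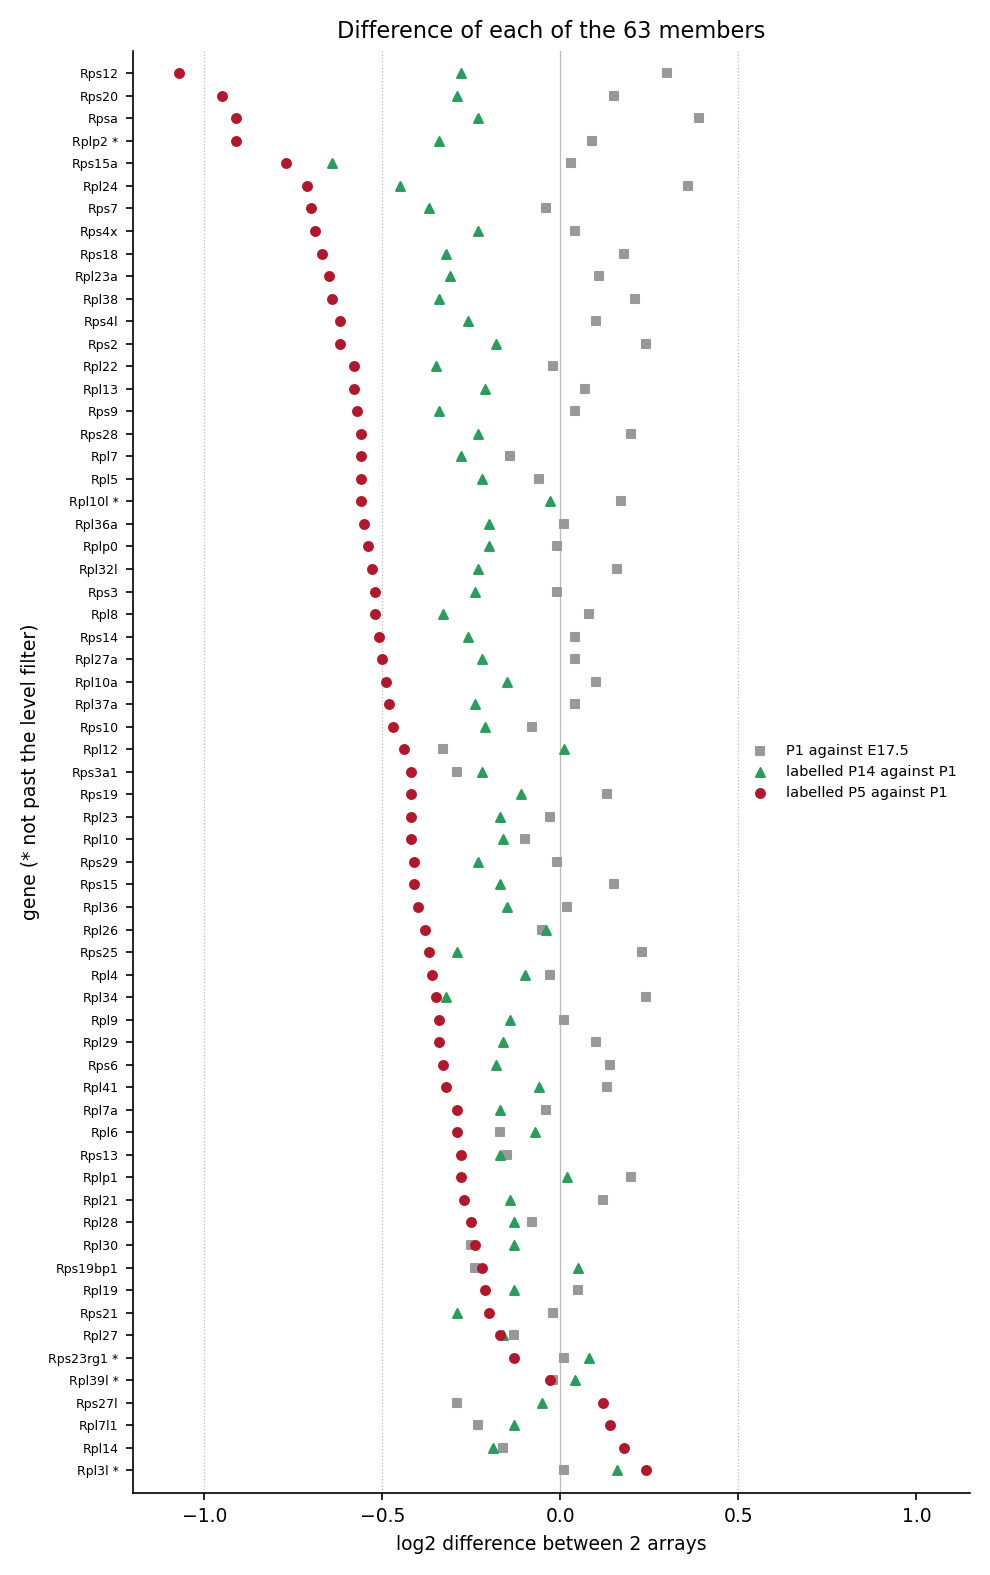
Log2 difference of each of the 63 members between P1 and E17.5 (grey squares), the labelled P14 array and P1 (green triangles) and the labelled P5 array and P1 (red circles), ordered by the last, with stars at the 5 members not past the level filter and dotted lines at -1, -0.5 and 0.5. Red circles lie left of 0 in 59 of 63 members and reach -1.07 in Rps12, while green triangles lie mostly between the red circles and 0.

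Smaller groups with a shared role held members from both subunits. The 3 X-linked members all lay below P1 on the labelled P5 array: Rpl10, which completes the large subunit, at 13.45, 13.35, 12.93 and 13.19, Rpl36a at 12.26, 12.27, 11.72 and 12.07, and Rps4x at 12.03, 12.07, 11.38 and 11.84. Rpl5, Rpl23 and Rps7, which bind Mdm2 when ribosome assembly is disturbed, differed by -0.56, -0.42 and -0.70. Rps7 measured 12.33, 12.29, 11.59 and 11.92. Of 8 members mutated in Diamond-Blackfan anaemia, 3 were at least 0.5 lower and all 8 lay below 0, where 14.4% and 45.6% of all genes did. The median of these 8 was -0.445, close to that of the 58. Rps19, the gene most often affected in that disease, measured 10.86, 10.99, 10.57 and 10.88.

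The paralogs did not move as one. Of the 5 paralogs and namesakes past the filter, Rps4l and Rpl32l were at least 0.5 lower on the labelled P5 array than at P1. Rps4l measured 9.50 at E17.5, 9.60 at P1, 8.98 on the labelled P5 array and 9.34 on the labelled P14 array, and its parent Rps4x differed by a similar -0.69. Rpl32l measured 8.43, 8.59, 8.06 and 8.36. It passed the filter through E17.5 and P1 alone, the arrays where it was highest, and it is among the 25 members counted above.

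Rps27l and Rpl7l1 took a different course from most members. Rps27l, a p53 target in human cells, measured 10.41, 10.12, 10.24 and 10.07, and Rpl7l1, an assembly factor related to Rpl7, measured 10.84, 10.61, 10.75 and 10.48. In both, E17.5 was highest and the labelled P14 array lowest, and the labelled P5 array lay above P1 by 0.12 and 0.14. Each gene was read from 1 probe set. Both differences are smaller than the standard deviation between probe sets of a gene, 0.176 over all genes in that comparison. Rpl7, the parent of the second, was lower on the labelled P5 array than at P1 (11.54, 11.40, 10.84 and 11.12). Rps19bp1, which encodes a protein that binds Rps19, measured 10.08, 9.84, 9.62 and 9.89. Rpl3l, a paralog of striated muscle, and Rpl10l and Rpl39l, paralogs known from testis, stayed between 4.50 and 7.07 on all arrays, under the filter, as did Rps23rg1, a retroposed copy related to Rps23, between 7.39 and 7.60.

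The labelled P14 array lay between P1 and the labelled P5 array. Against P1 the median was -0.205, against -0.01 over all genes, and 55 of 58 members lay below 0, where 51.1% of all genes did. Over all 63 the median was -0.20. Few differences were large: 1 member was at least 0.5 lower, where 1.94% of all genes were, and 0 were at least 0.5 higher, where 6.63% were. That member was Rps15a, at -0.64, followed by Rpl24 at -0.45 and Rps7 at -0.37. Rps19bp1, Rplp1 and Rpl12 were the members above 0, at 0.05, 0.02 and 0.01. Against E17.5, which shares the labelled P14 array, the median was -0.19, and 52 members lay below 0, where 57.7% of all genes did. In that comparison 2 members were at least 0.5 lower (Rps15a at -0.61 and Rps3a1 at -0.51), where 11.7% of all genes were, and 0 were higher, where 13.1% were. Rps3a1 was read from a dim probe set, and its brighter probe sets with several symbols had a median of -0.10 there. Those of Rps15a had a median of -0.50. Against the labelled P5 array the median was 0.26, and 4 members lay below 0, where 57.0% of all genes did. There Rps12, Rpsa and Rps20 were at least 0.5 higher on the labelled P14 array, where 9.48% of all genes were; 0 members were at least 0.5 lower, where 15.9% were.

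The order of the arrays was similar from gene to gene. The labelled P5 array was the single lowest in 54 of 58 members (93.1%), where 33.7% of all genes had it lowest. The labelled P14 array was lowest in the other 4, Rpl14, Rpl7l1, Rps21 and Rps27l, where 20.9% of all genes had it lowest. P1 was highest in 32 members (55.2%) and E17.5 in 24 (41.4%), where 10.8% and 37.0% of all genes did so. The labelled P14 array stood below P1 and above the labelled P5 array in 51 members (87.9%), and 27.6% of all genes had that order. The labelled P5 array was highest in Rpl14 alone, where 39.7% of all genes had it highest. With 1 array a pool, the 58 members are not replicates of that order, since all were read from the same 4 hybridisations.

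Many members were read more than once, which shows how far a single probe set can be relied on. The 63 members had 219 probe sets with a single symbol, and 39 members had more than 1. Of the 219, 214 were below 0 on the labelled P5 array against P1, 102 were at least 0.5 lower, and 209 were lowest on that array. Over all genes past the filter, each counted once, the shares were 45.6%, 14.4% and 33.7%. Shares over all probe sets were not counted. All probe sets lay below 0 in 38 of the 39 members, Rps21 being the exception with -0.20 and 0.09. Rps12 had 14 probe sets, between -1.17 and -0.96. The widest span was that of Rps2, from -0.62 to -0.26, and the median span was 0.09. The standard deviation between probe sets of a member was 0.053 over 38 members with more than 1 probe set past the filter. Rps21 is not among these 38, since 1 of its 2 probe sets was under the filter. Over all 645 genes with more than 1 probe set past the filter, members included, it was 0.176, and over the 607 that are not members 0.188. Probe sets of these genes are not independent: ribosomal protein genes have many near-identical processed copies, and in 5 members 12 probe sets repeated the values of another exactly. Which copy each probe set reads was not analysed here, and this spread holds no variation between mice.

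**Figure D4:**
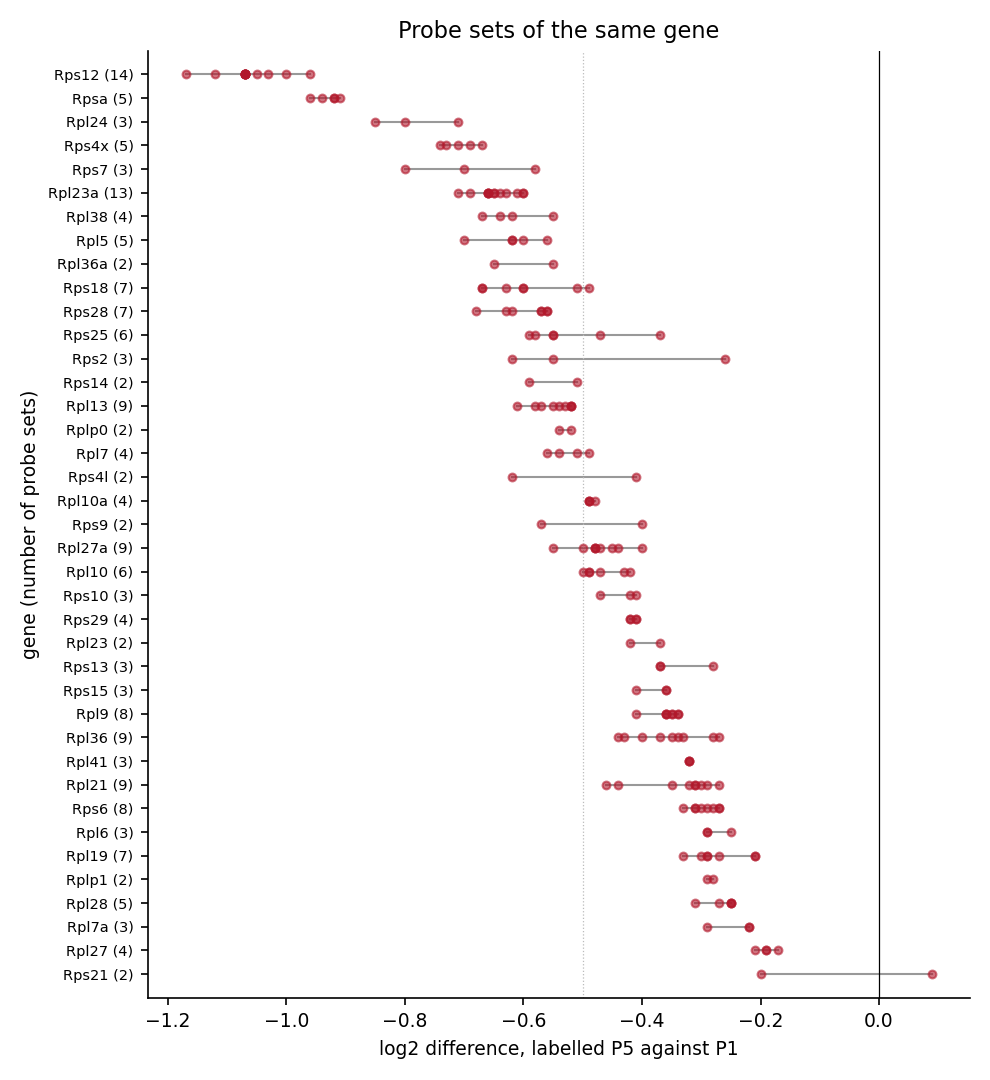
Log2 difference between the labelled P5 array and P1 for each probe set (red points) of the 39 members with more than 1, joined by a grey line per gene, with the number of probe sets in brackets. Points of a gene lie close together, those of Rps12 between -1.17 and -0.96, and only 1 point, of Rps21, lies above 0.

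Bright and dim members both lay below P1 on the labelled P5 array. The 26 subunit proteins with a mean log2 signal above 11.83, their median, had a median difference from P1 of -0.415, and the 27 at or below it one of -0.50. Across the 53 genes Spearman's rho between mean signal and this difference was 0.09, and for the labelled P14 array against E17.5 it was 0.452; the genes share the same arrays. Among the 594 genes of any kind with a mean of at least 11.83, the median was -0.06, with 16.5% at least 0.5 lower and 16.8% at least 0.5 higher. The 5 members with the highest mean signal were Rpl21, Rps6, Rps15, Rpl28 and Rplp1, at -0.27, -0.33, -0.41, -0.25 and -0.28. The 5 dimmest past the filter were Rpl32l, Rpl14, Rpl34, Rpl12 and Rps3a1, at -0.53, 0.18, -0.35, -0.44 and -0.42. Signals of different probe sets are not levels of different genes on a common scale, so no order among genes is drawn from them.

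Other lists of the translation machinery had medians of their own. Mitochondrial ribosomal proteins, which translate the mitochondrial genome, lay the other way on the labelled P5 array. Of 74 past the filter, 22 were at least 0.5 higher than at P1 and 0 at least 0.5 lower, where 22.9% and 14.4% of all genes were. The share at least 0.5 higher was thus not far above that of all genes. The median was 0.38, against 0.05 over all genes. Of the 74, 67 lay above 0 and 7 below, where 45.6% of all genes lay below. Mrps21 measured 10.73, 10.35, 11.19 and 10.54, Mrpl34 10.96, 10.18, 10.98 and 10.39, and Mrpl52, the lowest difference, 10.46, 10.17, 9.82 and 10.01. Against E17.5 their P1 median was -0.215, and the labelled P14 array differed from P1 by a median of 0.02. The difference between the mitochondrial and cytosolic sets was not tested.

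Fau measured 12.97 at E17.5, 12.92 at P1, 12.84 on the labelled P5 array and 12.85 on the labelled P14 array, a difference from P1 of -0.08 on the labelled P5 array, smaller than that of any subunit protein in the set. The list of elongation factors, which also holds Eef2k, Eef1e1 and Tpt1, had a median of -0.185 over 10 genes there. Eef1a1 (14.04, 13.97, 13.79 and 13.98) and Eef2 (13.45, 13.43, 13.24 and 13.34), which carry tRNA to the ribosome and move it along the mRNA, were within 0.5, and so was Tpt1, itself encoded by a TOP mRNA, at -0.42. Eef1a2, the form that replaces Eef1a1 in mature neurons and muscle, measured 11.10, 11.48, 12.56 and 12.01 and was 1.08 higher on the labelled P5 array than at P1. Eif5a2 measured 8.90, 9.06, 10.95 and 9.45. Eef2k, the kinase that inhibits Eef2, and Eef1e1, of the tRNA synthetase complex, differed by -0.94 and -0.82.

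Initiation factors had a median of -0.075 over 32 genes, with 0 at least 0.5 lower and only Eif2b4, of the exchange factor eIF2B, at 0.50. Of all genes, 14.4% were at least 0.5 lower and 22.9% at least 0.5 higher. Pabpc1, the poly(A)-binding protein, and Eif4g2 were both at -0.43. Of 50 ribosome biogenesis genes, 6 were at least 0.5 lower, where 14.4% of all genes were, so their share was not above that of all genes, and 1 was higher, with a median of -0.125. Fbl, the methyltransferase of ribosomal RNA, measured 10.37, 10.26, 9.34 and 9.93, and Npm1, a nucleolar chaperone, 10.92, 10.76, 10.18 and 10.42. Ncl, the nucleolar protein nucleolin, differed by -0.33, and Sbds, which helps release eIF6 from the large subunit, was the gene that was higher, at 0.94.

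RNA polymerase I and its factors, which transcribe ribosomal RNA, had a median of -0.10 over 13 genes, with Taf1d at -0.94 and Taf1a at -0.58. Genes of TOR, MYC and TOP control had a median of -0.04 over 19, with 11 below 0, where 45.6% of all genes were, and 8 above. In this list 5 were at least 0.5 lower and 0 at least 0.5 higher, where 14.4% and 22.9% of all genes were. Myc measured 11.07, 11.34, 10.09 and 11.08, Mycn 9.33, 8.92, 7.89 and 8.70, and Eif4ebp1, a repressor of cap-dependent initiation, differed by -0.79, while Mtor and Larp1 were at 0.13 and -0.27. For the labelled P14 array against P1 the medians were -0.095 for elongation, -0.065 for initiation, -0.14 for biogenesis, -0.21 for RNA polymerase I and -0.05 for TOR, MYC and TOP control. For P1 against E17.5 they were 0.025, -0.095, -0.115, -0.08 and -0.04 in the same order.

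**Figure D5:**
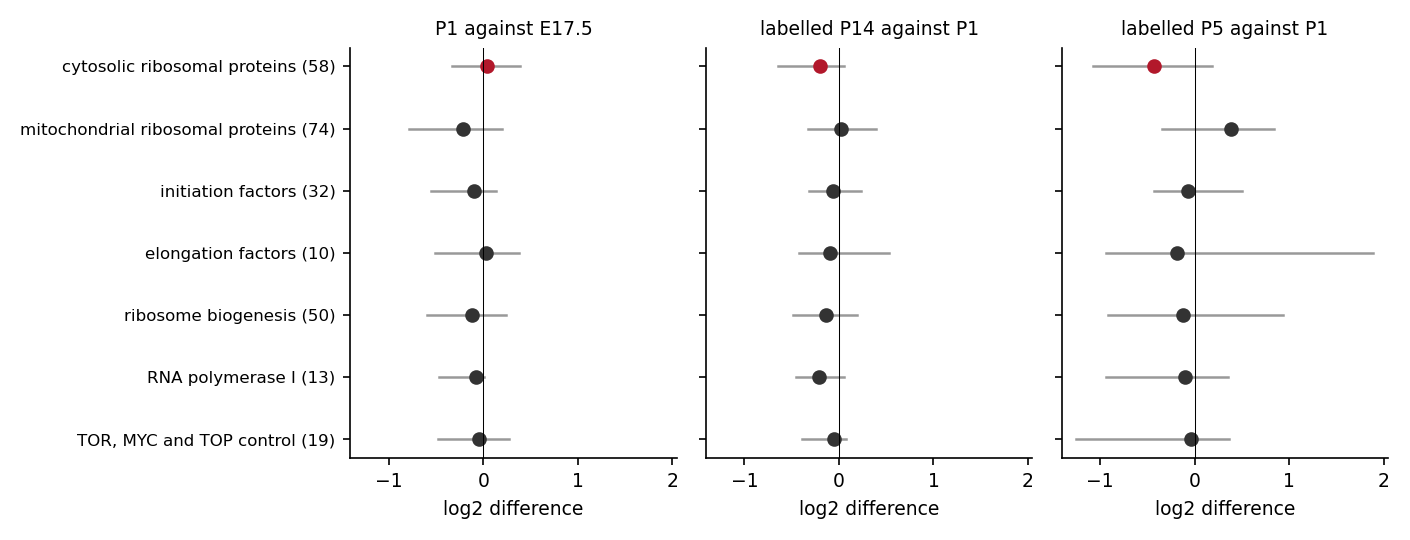
Median (points) and range (lines) of the log2 difference in 3 comparisons for the 58 cytosolic ribosomal protein genes (red) and 6 other lists of the translation machinery, with the number of genes past the level filter in brackets. On the labelled P5 array against P1 the cytosolic ribosomal proteins lie at -0.43, the mitochondrial ones at 0.38, and the other lists between -0.185 and -0.04. The list of elongation factors also holds Eef2k, Eef1e1 and Tpt1.

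Markers of other cell types moved on the same arrays. The summed linear signal of 16 markers of young neurons, all past the filter, was 118000 at E17.5, 109000 at P1, 41200 on the labelled P5 array and 86000 on the labelled P14 array. That of 15 myelin and oligodendrocyte markers was 3950, 6130, 91500 and 12500, and that of 12 astrocyte markers 12300, 21500, 44600 and 33000. The sum of 11 microglia markers was 3440, 5030, 8290 and 7400, and that of 14 cell cycle genes 9010, 8190, 5550 and 7630. The 6 markers of choroid plexus and ependyma were all under the filter. The 63 ribosomal protein genes gave 254000, 265000, 195000 and 233000. Their sum was lowest on the labelled P5 array and next lowest on the labelled P14 array. The young neuron markers, the cell cycle genes and the pontine markers (43700, 36100, 29000 and 32900) had the same order. So did the choroid markers (868, 877, 710 and 851), which were all under the filter. The sum of 14 markers of other neurons, 7 of them past the filter, was 5390, 4690, 2530 and 4710. That sum was lowest on the labelled P5 array and next lowest at P1. The part of these markers in the values of the ribosomal protein genes was not tested.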

How the data were processed

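The authors deposited 1 table of log2 signals, 1 value per probe set and array, made with Affymetrix Expression Console per the submitters' processing notes; for its version, summary method and normalisation the entry is: not given in the sources used here. That the scale is log2 was inferred from the range of values. Per the labels' protocols, total RNA was turned into cDNA of the sense strand with a kit for whole transcripts. Precision is limited by the single array per age.

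Of 35556 probe sets, the platform table named 23410, of which 21789 had 1 gene symbol and 1621 several. All 63 members' Entrez identifiers were in the RefSeq gene table. The number of per-sample columns not used was 0. Differences were computed in Python 3.11.15 with pandas 2.3.3 and numpy 2.4.6, and the computation was tested on simulated data. Named members were the 5 largest and 5 smallest differences of each of 6 comparisons, stalk proteins, paralogs with parents, X-linked members and the brightest and dimmest. From other lists, up to 3 at each end and a fixed set of genes were named. Rps14, Rpl27a, Rpl10a and Rpl37a were named for their place at the threshold, and Rps18, Rps10, Rps19, Rpl5, Rpl23, Rpl23a, Rpl19, Lhx2, Lhx9, Mtor and Larp1 as examples, after their values were seen. The members and lists were chosen with earlier results of these data known. Alternatives changed the choice of probe set, the level filter, the scaling or the membership.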

Additional observations from a re-analysis of the deposited data

How the results depend on the processing

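Under the alternatives, 147 values of the ribosomal protein medians and counts moved by less than the spread between probe sets (medians) or stayed within 1.5 times (counts), and 9 did not. The median of P1 against E17.5 is among the 147 although it took both signs. Counts that were 0 in every setting, such as those at least 0.5 higher on the labelled P5 array, are among them too. So are the counts at least 0.5 lower on the labelled P5 array with centred arrays. These rose from 25 to 36 against P1 and from 20 to 29 against E17.5. With only the genes that have a single probe set, 19 members were left and the counts at least 0.5 lower on the labelled P5 array were 6 against E17.5 and 6 against P1, and the count higher on the labelled P14 array than on the labelled P5 array was 1; fewer genes were counted. That last count was 5 without a level filter and 6 with centred arrays. The count at least 0.5 lower on the labelled P14 array against E17.5 was 1 with a level filter at 10, 1 with centred arrays and 1 after quantile normalisation, and against P1 it was 2 with the mean over a gene's probe sets; the cause was not tested. Medians ranged from -0.54 to -0.42 for the labelled P5 array against P1, from -0.495 to -0.4262 against E17.5, from -0.214 to -0.1688 for the labelled P14 array against P1, from -0.25 to -0.14 against E17.5, from 0.23 to 0.37 for the labelled P14 array against the labelled P5 array, and from -0.02 to 0.085 for P1 against E17.5. Leaving out the listed paralogs and namesakes kept Rpl32l, so a list of 53 subunit proteins was added after seeing the data, as were choices of probe set and filter without the labelled P5 array, or from E17.5 and P1 alone, for the comparisons that do not use the arrays left out; none of these changed the sign of a median. No paired analysis was possible because each age has 1 array and its replicate number only names it.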

Other observations

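Ribosomal protein symbols also stood on 239 probe sets that carry several symbols, mostly with a predicted gene, pseudogene or small nucleolar RNA, and these were in none of the counts above. Of the 236 past the level filter, 234 were below 0 on the labelled P5 array against P1, with a median of -0.355. Of these 236, 79 were at least 0.5 lower and 0 at least 0.5 higher. Their median was 0.04 for P1 against E17.5 and -0.15 for the labelled P14 array against P1. Over all genes, each counted once, 45.6% were below 0, 14.4% at least 0.5 lower and 22.9% at least 0.5 higher on the labelled P5 array against P1. Shares over all probe sets were not counted. Rpl29 stood on 35 of the 239, Rpl21 on 32, and Rpl7a, Rpl17 and Rps2 on 17 each, so the counts read some genes many times. Taken by protein, the 239 covered the 16 listed subunit proteins that no single-symbol probe set measured. The median over a protein's probe sets was below 0 on the labelled P5 array against P1 in all 16, where 45.6% of all genes were. It was at least 0.5 lower in 8, where 14.4% of all genes were. The median of these 16 was -0.49. Probe sets of Rpl32, Rpl37 and Rps27 also carry a paralog's symbol. Rpl35, at -0.75, and Rps24, at -0.74, were the lowest, and Rpl13a, at -0.085, and Rpl3, at -0.10, the highest; these 4 were named after their values were seen.

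The 2 probe sets above 0 past the filter carried Rpl13a together with a small nucleolar RNA, Snord32a or Snord34, and both stood at 0.16 in that comparison, with -0.69 and -1.07 for P1 against E17.5. The other 2 probe sets of Rpl13a stood at -0.36 and -0.33, so its value of -0.085 rests on those with a small nucleolar RNA.

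In 18 members both kinds of probe set were present, and in 6 of them a probe set with several symbols was at least 1 brighter at P1 than the one used. Against P1, the labelled P5 array was lower on these than on the probe set used in 4 of the 6 and higher in 2. Rpl12 had 8.64 at P1 on its single-symbol probe set and up to 13.33 on the others, with a median of -0.55 in place of -0.44, and Rpl26 had 10.05 and up to 11.46, with -0.63 in place of -0.38. Rps3a1 (-0.47 in place of -0.42) and Rpl30 (-0.32 in place of -0.24) went the same way, and Rpl34 (-0.29 in place of -0.35) and Rpl29 (-0.29 in place of -0.34) the other way. Among the 12 members without such a brighter probe set, Rps19 stood at -0.74 in place of -0.42, while single dim probe sets of Rpl13 and Rps13 stood at -0.07 in place of -0.58 and at 0.17 in place of -0.28.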
